A study of Mus musculus with 57 samples.

Results

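The central and posterior genes of the mouse HoxB cluster, Hoxb5, Hoxb6, Hoxb7, Hoxb8, Hoxb9 and Hoxb13, were examined through every list of enriched chromatin regions in the series. The members were all regions that overlapped a window of 130 kb in mouse build mm9, chr11:96045000-96175000, which was fixed by the approximate positions of the 6 genes and by no measured value. The window held 147 of the 591931 regions in 32 lists. The remaining genes of the cluster, Hoxb1 to Hoxb4, lie in the next 60 kb, which held 133 regions and served as the neighbour for comparison. In mm9 the approximate positions were 96.055 Mb for Hoxb13, 96.133 Mb for Hoxb9, 96.143 Mb for Hoxb8, 96.148 Mb for Hoxb7, 96.16 Mb for Hoxb6 and 96.165 Mb for Hoxb5. No mm9 annotation was used, so a region is placed by its distance from these positions and not by exon, intron or UTR.

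Hox genes encode homeodomain transcription factors that tell cells of the embryo where they lie along the head to tail axis. The genes of a cluster are switched on one after another during gastrulation, in the order in which they lie on the chromosome, so Hoxb1 comes first and Hoxb13 last. Wnt signals from the posterior epiblast start this activation, and Cdx factors are known to take part in the activation of the central genes. Before activation the clusters are held silent by Polycomb complexes. H3K27me3 is the histone mark that Polycomb repressive complex 2 sets, and Ring1b is a core subunit of Polycomb repressive complex 1. H3K4me3 marks promoters, H3K27ac marks active promoters and enhancers, and ATAC-seq finds open chromatin.

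The study profiled epiblast stem cells (EpiSCs), which are derived from the epiblast before gastrulation, and early embryos. ChIP-seq for H3K4me3, H3K27ac, H3K27me3 and Ring1b was done in Wnt3 knockout EpiSCs, which lack one Wnt ligand. Wild-type EpiSCs were used for a second set of H3K27ac libraries. Stimulated cells were taken off IWP2, an inhibitor of Wnt secretion, and received either CHIR99021 at 3 µM, which activates the pathway by inhibiting GSK3, or Wnt3a protein at 125 ng/mL for 5 h. ATAC-seq was done in wild-type EpiSCs at 0 h and after 48 h of CHIR99021, and in wild-type embryos at embryonic day (E) 6.0, E7.2 and, as posterior parts, E7.5.

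The Wnt3 knockout libraries were H3K4me3 and H3K27ac at 0, 6, 12 and 72 h of CHIR99021 with 1 library each, Ring1b at 0 h (2 libraries), after Wnt3a (1) and at 72 h (1), and H3K27me3 at 0 h (2), after Wnt3a (1) and at 6, 12 and 72 h (1 each). The labels give the 0 h cells as unstimulated for H3K4me3 and H3K27ac in the knockout and as kept in IWP2 for the other 0 h EpiSC libraries. Wild-type H3K27ac was measured at 0 h (1 library) and at 24 h of CHIR99021 (2). ATAC-seq had 2 libraries at E6.0, 2 at E7.2 and 1 in each other group. The labels do not say how many EpiSC lines or clones were used, or that replicates came from separate cultures or litters, so their spread, and any p-value, may be technical. Stage names inside the embryo lists differ from the labels, which were followed here. In 2 further libraries, H3K4me3 in wild-type EpiSCs, the title and the stimulation field contradict each other. They entered no comparison, which left 123 regions in 30 lists. The 2 inputs had no region in the window.

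Read depth is not known for any library because the lists hold no read totals, and a region absent from a list may have been missed. List lengths were 16287 to 17714 regions for H3K4me3, 10161 to 29056 for H3K27ac, 1012 to 6236 for H3K27me3, 604 to 2244 for Ring1b and 33881 to 72433 for ATAC-seq. The peak names show 7 processing folders, and wild-type H3K27ac and EpiSC ATAC-seq have their 0 h list in another folder than their stimulated lists. The window was divided into 7 stretches. The stretch of each gene ends midway to the next gene, and a stretch without a Hox gene runs from 10 kb after Hoxb13 to 10 kb before Hoxb9 (58.0 kb). Each library is described by the covered share, which is the percentage of a stretch or of the window that lies under listed regions.

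Sequence at these genes was taken from RefSeq tables of build GRCm38.p6, in which 1 of the 6 genes had a promoter entry. It belongs to Hoxb8, which acts in trunk patterning and in the precursors of some blood and microglial cells. The 300 bases, around the gene start, are shown because a region of active marks was listed close to Hoxb8 only after Wnt activation. Capitals mark matches to the letters TTTATNNC, a form bound by CDX factors, and TAATNA, a core bound by HOX factors, on either strand.
Hoxb8: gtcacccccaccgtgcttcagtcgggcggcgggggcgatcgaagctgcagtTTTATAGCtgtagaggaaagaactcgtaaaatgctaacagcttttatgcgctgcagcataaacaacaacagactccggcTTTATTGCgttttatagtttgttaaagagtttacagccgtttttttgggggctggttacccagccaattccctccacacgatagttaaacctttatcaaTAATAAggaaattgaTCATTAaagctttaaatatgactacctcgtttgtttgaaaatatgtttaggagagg
The CDX letters occur 2 times in these 300 bases, and 1.40% of the 32851 promoters of the same length hold 2 or more matches (12.6% hold at least 1). The HOX letters also occur 2 times, which 7.90% of promoters reach or exceed (26.5% hold at least 1), and CTTTGA, the core bound by TCF and LEF factors, has no match (16.0% of promoters hold one). The matches of different motifs do not overlap. With 42.3% G and C the sequence is below the promoter median of 52.7%, yet it holds 13 CpG dinucleotides against a median of 7. These are matches of letters and do not show binding, and the build differs from that of the lists, so the stretch was not aligned with the regions.

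In the RefSeq order the stretch between Hoxb13 and Hoxb9 holds no protein-coding gene, but it is not empty. It lists the long non-coding RNA genes Gm30134, Gm11538, Gm53 and Gm51876, the pseudogene Gm11539 and, next to Hoxb9, the microRNA gene Mir196a-1. Its microRNA, known to target Hoxb8 mRNA, is shown because its gene is the one microRNA gene of this interval, with the seed (bases 2 to 8) in capitals.
mmu-miR-196a-5p: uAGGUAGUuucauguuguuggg
A further non-coding gene, Hoxb5os, lies between Hoxb7 and Hoxb6, and none of the lists is stranded, so a region there cannot be assigned to the coding or the antisense gene.

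**Figure D1:**
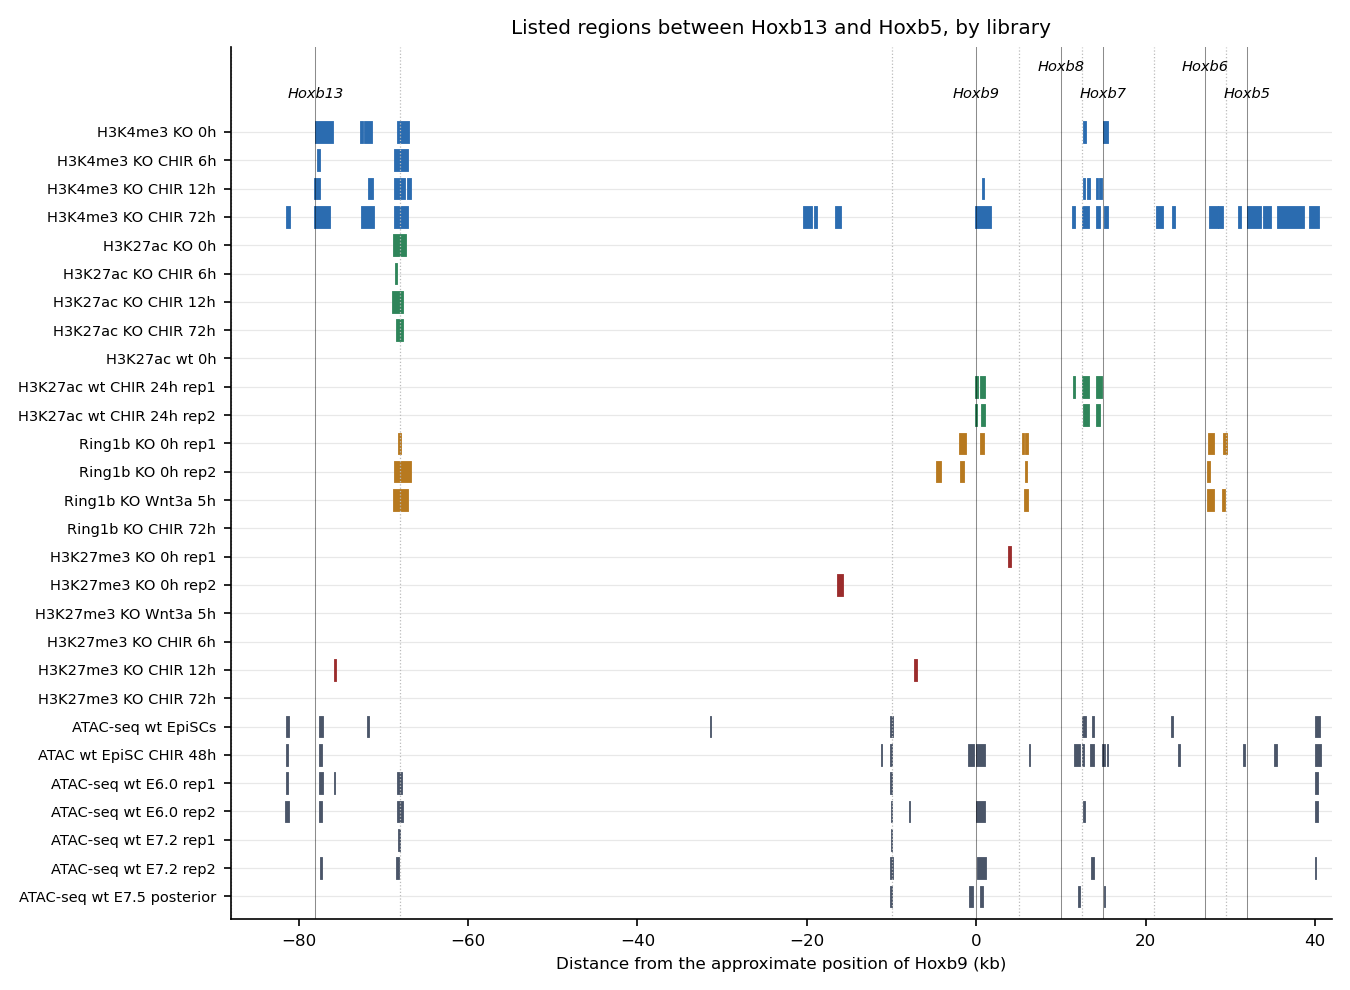
Listed regions along the window (x axis, distance in kb from the approximate position of Hoxb9) in the 28 antibody and ATAC-seq libraries with an assigned group (y axis). Each bar is 1 region, solid lines are gene positions and dotted lines are the borders of the 7 stretches. H3K4me3 at 72 h has 21 regions and is densest at Hoxb6 and Hoxb5 (33.1% and 59.9% of their stretches). A gap of 35.3 kb in the Hox-free stretch has no region in any of these libraries.

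Across the 30 assigned lists the regions of the window joined into 36 sites, each a run of overlapping regions, and 17 of the sites were listed in 1 library only. A region within 1 kb before to 2 kb after the gene position was found in 9 of 28 libraries for Hoxb13, 9 for Hoxb9, 7 for Hoxb7, 4 for Hoxb6, 3 for Hoxb8 and 2 for Hoxb5. Hoxb13 and Hoxb9 thus have equal counts but of different libraries, since 5 of the 13 libraries with either gene had both. For Hoxb13 these were all 4 H3K4me3 libraries of the time course and 5 of 7 ATAC-seq libraries, and no H3K27ac, Ring1b or H3K27me3 library. For Hoxb9 they were 2 H3K4me3, 2 H3K27ac, 1 Ring1b and 4 ATAC-seq libraries. The pairs with the most similar presence over the 28 libraries were Hoxb8 with Hoxb5 (2 of 3 libraries shared, Jaccard index 0.667) and Hoxb9 with Hoxb7 (6 of 10, 0.6). These indices rest on few libraries that share cells and batches and are descriptions.

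H3K4me3 was already present at Hoxb13 and Hoxb7 before stimulation, and by 72 h it covered the central genes, most densely Hoxb5 and Hoxb6. In Wnt3 knockout EpiSCs the window was covered to 4.44% by 6 regions at 0 h, to 1.45% by 2 regions at 6 h, to 3.55% by 9 regions at 12 h and to 17.1% by 21 regions at 72 h. The difference of 12.6 percentage points between 72 h and 0 h exceeded the 95% counting error of 9.74 points derived from the number and length of the regions, with 1 library per time and no replicate check. This error treats the regions as independent, although 9 of the 21 at 72 h lay in 1 run of neighbours. It may therefore be too small, and it is not a test of time. In a window 10 kb shorter on each side, which leaves out 4 of the 21 regions at 72 h, the difference was 7.94 points and did not exceed its own counting error of 8.91 points. The 6 h and 12 h values differ by 2.11 points, within the counting error of 3.63 points. The lists at 0 and 72 h come from one processing folder and those at 6 and 12 h from another, so differences between these pairs cannot be told apart from the folder.

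Hoxb13, the most posterior gene of the cluster, which acts in the tail region and the prostate, carried H3K4me3 in every list of the time course. The covered shares of its stretch at 0, 6, 12 and 72 h were 18.9%, 4.91%, 9.54% and 23.1%. At the gene position the region with the highest fold at 0 h spanned chr11:96054957-96057015 (12.7-fold, the authors' enrichment over local background), and the matching region at 72 h spanned chr11:96054798-96056655 (9.76-fold). Those at 6 h and 12 h were 310 and 635 bp long. A site at chr11:96060257-96061885, about 6.07 kb past the gene, was listed at 0, 12 and 72 h and not at 6 h.

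Hoxb7, a trunk patterning gene, was the other member with H3K4me3 at 0 h. Its stretch had 2, 0, 4 and 3 regions at 0, 6, 12 and 72 h, which covered 11%, 0%, 16.9% and 21.3%. The 2 regions at 0 h, chr11:96145580-96145901 and chr11:96147935-96148548, had the same 6.31-fold enrichment. Both overlapped regions at 72 h, when the region of highest fold in the stretch was one between them, chr11:96147102-96147665 (3.6-fold). The order of the 4 times therefore runs 6, 0, 12 and 72 h for Hoxb7, not in order of time.

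Hoxb9, Hoxb8, Hoxb6 and Hoxb5 had no listed H3K4me3 at 0 h or 6 h. Hoxb9, which helps pattern the thoracic skeleton, was the only one of these 4 with a region at 12 h, chr11:96133666-96133965 (5.36-fold), so its stretch was covered to 2.00%. At 72 h the Hoxb9 stretch was covered to 12.6% by chr11:96132832-96134728 (5.07-fold), which contains the region seen at 12 h. Hoxb8 had a single short region at 72 h, chr11:96144326-96144686 (3.36-fold, 361 bp), and 4.81% of its stretch covered.

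Hoxb6 and Hoxb5, which pattern the trunk and, for Hoxb5, the forelimb level and neural crest derivatives of the gut, had the densest H3K4me3 of the window at 72 h. The Hoxb6 stretch was covered to 33.1% by 4 regions and the Hoxb5 stretch to 59.9% by 5 regions. The 9 regions formed a run of 19.3 kb, chr11:96154207-96173483, of which 53.4% was covered. The region of highest fold at Hoxb6 was chr11:96160475-96161489 (3.78-fold), and at Hoxb5 it was chr11:96168522-96171752 (3.61-fold, 3231 bp). The next 60 kb, with Hoxb1 to Hoxb4, was covered to 10.4% at 72 h, and chromosome 11 as a whole to 1.45%.

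**Figure D2:**
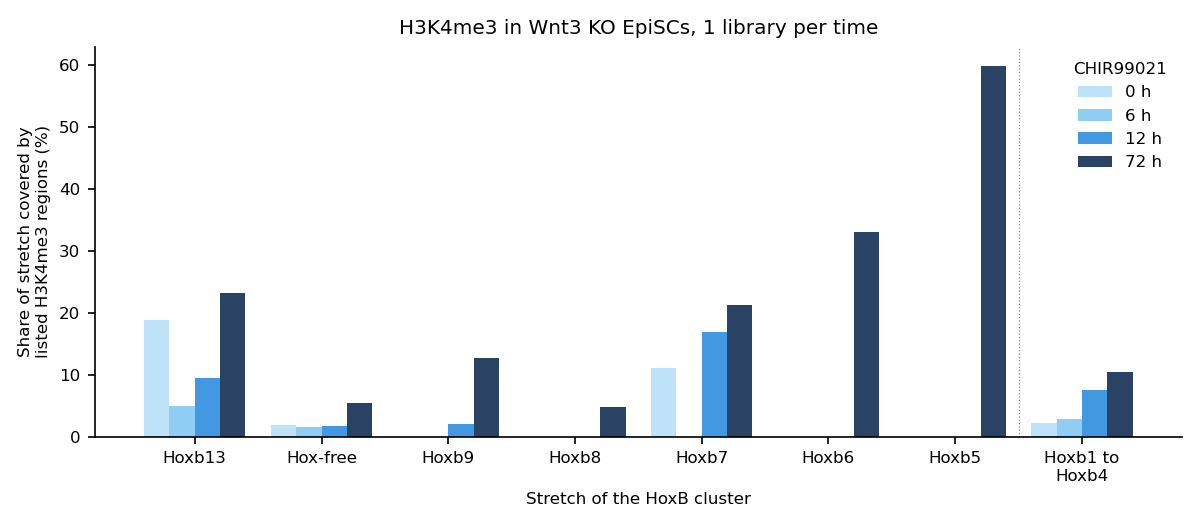
Share of each stretch covered by listed H3K4me3 regions (y axis, percent) in Wnt3 knockout EpiSCs at 0, 6, 12 and 72 h of CHIR99021, 1 library per bar, with Hoxb1 to Hoxb4 at the right. Hoxb13 and Hoxb7 have bars at 0 h, whereas Hoxb6 and Hoxb5 have bars at 72 h only, of 33.1% and 59.9%.

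Of the 21 regions at 72 h, 16 did not overlap a region at 0 h (76.2%, 95% Wilson interval 54.9 to 89.4%), against 6.69% of the 16746 regions of that list. In the Hoxb1 to Hoxb4 stretch 5 of 7 regions were absent at 0 h, and the difference between the ends of the cluster was not tested. None of the 6 regions at 0 h was missing at 72 h (Wilson upper bound 39.0%), while 4.83% of the regions of the 0 h list were. Of the 9 regions at 12 h, 6 were not listed at 6 h, against 7.23% of that list, and 4 of these 6 lay at Hoxb7. All 9 overlapped regions at 72 h, as did 96.1% of the 17714 regions of the 12 h list. Neighbouring regions of 1 domain are not independent, so the intervals cover counting error only.

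The regions that appeared by 72 h were among the least enriched of their list by fold, but less so by the peak caller's p-value. Their fold was 2.15 to 6.71 with a median of 3.38, where the median of the whole list was 20.3, and their median −log10 p was 19.9 against 81.3. In the order of fold 13 of these 16 regions were among the last 100 of the 16746 regions, and the last of all, at chr11:96156064-96156464, lay at Hoxb6. Of those last 100 regions of the list, 15 lay in this window, 5 in the Hoxb1 to Hoxb4 stretch and 80 elsewhere. The 1099 regions gained elsewhere in the genome had a higher median fold (5.82), a lower median −log10 p (11.8) and a shorter median length (414 against 774 bp). The 5 regions already listed at 0 h had folds of 3.04 to 11. The peak names were read as giving a local background of 100 kb, and the background library is not given. Whether a run of regions raises that background was not tested.

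**Figure D3:**
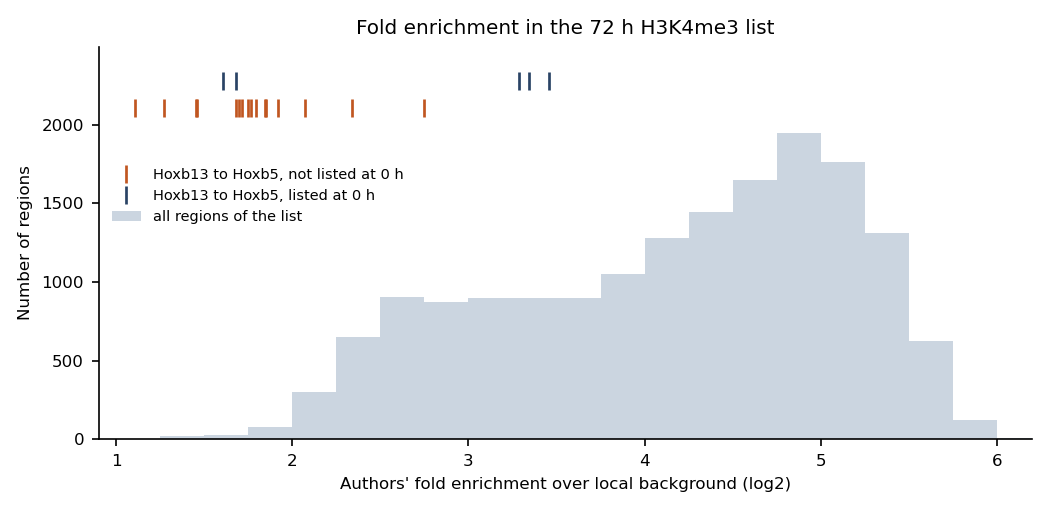
Number of regions (y axis) by the authors' fold enrichment (x axis, log2) in the 72 h H3K4me3 list. Grey bars are all 16746 regions, and ticks are the 21 regions of the window, the 16 not listed at 0 h below and the 5 listed at 0 h above. Most of the 16 sit at the lower end of the distribution, at 2.15 to 6.71-fold.

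The Hox-free stretch between Hoxb13 and Hoxb9 was sparse in every assay. Over the 30 lists 26 regions overlapped it, at 7 sites that together cover 4.18 kb (7.22%) of its 58.0 kb. The longest part without any region was 35.3 kb, chr11:96066246-96101531, directly after the site that borders Hoxb13. The next gap was 10.8 kb, chr11:96101704-96112508. The middle of the interval thus held 1 region, chr11:96101532-96101703, listed by ATAC-seq in EpiSCs at 0 h (4.37-fold) and in no other list. Nearer Hoxb9, chr11:96121704-96121868 was listed by ATAC-seq in EpiSCs at 48 h only (3.61-fold).

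H3K4me3 covered 1.83%, 1.55%, 1.68% and 5.47% of this stretch at 0, 6, 12 and 72 h. Up to 12 h all of it belonged to the site that borders Hoxb13. At 72 h 3 regions were listed that no other assigned H3K4me3 list holds, chr11:96112509-96113647 (6.71-fold), chr11:96113821-96114174 (3.21-fold) and chr11:96116335-96117045 (3.47-fold). They lie 19.9, 19 and 16.2 kb before Hoxb9. The first had the highest −log10 p of the 21 regions in the window (46.0). No H3K27ac, Ring1b or ATAC-seq region overlapped them. One H3K27me3 region of the second 0 h library, chr11:96116613-96117240 (2.57-fold), overlapped the last of these.

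A site 10.1 kb past Hoxb13, chr11:96064027-96066245, on the border of the stretch, was listed in 15 libraries, the most of any site. These were all 4 H3K4me3 and all 4 H3K27ac libraries of the Wnt3 knockout, 3 of 4 Ring1b libraries and all 4 libraries of E6.0 and E7.2 embryos. It was absent from both EpiSC ATAC-seq lists, from the E7.5 posterior list and from all 3 wild-type H3K27ac lists. The H3K4me3 fold at the site was 13.9, 12.2, 8.57 and 11 at 0, 6, 12 and 72 h, each the region of highest fold of the window in its list except at 12 h, when a region past Hoxb13 had 9.15-fold. For H3K27ac, the mark measured in both genotypes, the site was thus in all 4 knockout lists and in no wild-type list, and the difference between genotypes was not tested.

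A second site, chr11:96122797-96123134, 10.0 kb before Hoxb9 on the other border, differed from the first in its marks. It was listed in all 7 ATAC-seq libraries and in no ChIP-seq library. Its fold was 7.26 in EpiSCs at 0 h and 8.12 at 48 h, 7.42 and 3.27 in the E6.0 replicates, 4.84 and 7.30 in the E7.2 replicates, and 4.39 in the E7.5 posterior part. No other site of the window was open in all 7 lists.

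H3K27ac was listed over a small part of the window, and at different sites in the 2 genotypes. In Wnt3 knockout EpiSCs each list had 1 region, at the site 10.1 kb past Hoxb13, and none at the genes. The covered shares at 0, 6, 12 and 72 h were 1.18%, 0.231%, 1.04% and 0.647%. The difference of -0.537 points between 72 h and 0 h is one of the length of 1 region. The nearest available pair, the wild-type replicates at 24 h, had an SD of 0.476 points. That pair is of another genotype, time and set of sites and does not measure the spread between knockout libraries. In this genotype no H3K27ac region was listed at Hoxb5 to Hoxb9 at any time, including 72 h, when H3K4me3 covered 17.1% of the window. The knockout lists hold 10161 to 12135 regions, and the wild-type lists at 24 h hold 29056 and 27422. By p-value, the strongest regions of the window in those 2 wild-type lists ranked 12122 and 13368. Whether the shorter lists account for the absence in the knockout was not tested.

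Wild-type EpiSCs had no H3K27ac region in the window at 0 h and 5 and 4 regions in the 2 libraries at 24 h, which covered 2.15% and 1.48% (mean 1.82% ± 0.476, SD, n = 2). The regions lay at Hoxb9 and Hoxb7 in both libraries and at Hoxb8 in the first only. Hoxb7 was covered most, to 17.7% and 12.9% of its stretch, with chr11:96145522-96146351 (4.85-fold) as the leading region of the first library. Hoxb9 followed with 6.64% and 5.52%, led by chr11:96132837-96133265 in the first (3.92-fold) and chr11:96133537-96134051 in the second (4.04-fold). Hoxb13, the Hox-free stretch, Hoxb6 and Hoxb5 had none in either library.

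All 4 regions shared by both 24 h libraries were absent at 0 h, where 59.1% of the 24293 shared regions of the whole list were absent too, so 4 of 4 says little by itself (Wilson lower bound 51.0%). In the Hoxb1 to Hoxb4 stretch 11 of 12 were gained. That neighbour was covered to 22.6% and 22.2% at 24 h, against 1.78% at 0 h, and chromosome 11 to 1.76% and 1.62%. The covered share of the window as a whole at 24 h was thus close to that of the whole chromosome, and below that of the anterior genes in each library. That share includes the 58.0 kb without a Hox gene and was uneven, with 17.7% and 12.9% at Hoxb7 and none at Hoxb13, Hoxb6 and Hoxb5. When lists of equal length were compared, the difference between 24 h and 0 h was 0.593 points and 1 shared region was gained, at 14453 regions per list. The 0 h and 24 h lists come from different folders, and time and folder cannot be told apart.

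The positions of the 4 regions were compared with lists from other times, since no other mark was measured at 24 h. All 4 overlapped H3K4me3 at 72 h in the knockout and ATAC-seq at 48 h in the wild type, where 57.5% and 76.8% of all shared H3K27ac regions did. With H3K4me3, 3 overlapped at 12 h and 1 at 0 h, against 53.8% and 56.5% of the whole list. With ATAC-seq at 0 h 1 of the 4 overlapped, against 73.7% of the whole list.

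Ring1b occupied this window before stimulation and, apart from the site 10.1 kb past Hoxb13, it lay at other genes than H3K4me3. The 2 libraries at 0 h had 7 and 5 regions and covered 2.81% and 2.88% (mean 2.85% ± 0.0435, SD, n = 2), where chromosome 11 was covered to 0.0823% and 0.0712%. After 5 h of Wnt3a there were 4 regions and 2.54%, and after 72 h of CHIR99021 there were none. The Hoxb9 stretch was covered to 9.06% and 7.36% at 0 h, Hoxb8 to 8.85% and 4.35%, and Hoxb6 to 13.2% and 4.31%. No Ring1b list had a region in the Hoxb7 stretch, and none had one at the Hoxb13 position.

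The 2 replicates shared 4 regions, which are named because they are few, after their values were seen. In the first library they were chr11:96064700-96065141 at the site past Hoxb13 (4.11-fold), chr11:96130916-96131837 before Hoxb9 (2.93-fold), chr11:96138739-96139087 on the Hoxb9 side of Hoxb8 (3.09-fold) and chr11:96160305-96161025 at Hoxb6 (3.35-fold). After Wnt3a the one before Hoxb9 was not listed (1 of 4, against 9.24% of the 1126 shared regions in the genome), and the Hoxb9 stretch had no Ring1b. The other 3 were listed, with 4.98-fold past Hoxb13, 3.33-fold at Hoxb8 and 3.48-fold at Hoxb6. The difference in covered share from 0 h was -0.307 points, and -0.276 points when taken only from the 0 h library that shares its folder. It was -0.101 points among regions with a −log10 q of at least 5 and -0.915 points in lists of equal length, so its size depends on the regions kept.

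At 72 h 4 of 4 shared regions were not listed, where 72.9% of the shared regions in the genome were not, and in the Hoxb1 to Hoxb4 stretch 3 of 3. The 72 h list holds 604 regions, fewer than the 1605 and 1783 at 0 h. When each Ring1b list was reduced to its 604 strongest regions, 0 of the shared regions of the window remained at 0 h to be lost, and the difference in covered share was -0.915 points. The 72 h list therefore does not separate a loss in the window from its short length. Of the 7 and 5 Ring1b regions at 0 h, 4 and 2 overlapped H3K4me3 of 72 h, against 50.9% and 53.3% of the 2 lists. In both libraries these included the site past Hoxb13 and Hoxb6, where the H3K4me3 region was chr11:96160475-96161489. The first library had 1 more at Hoxb6 and 1 at Hoxb9, chr11:96133445-96133881 (3.95-fold), inside the H3K4me3 region chr11:96132832-96134728.

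Listed H3K27me3 regions were few and did not recur. The first 0 h library had chr11:96136716-96137159 past Hoxb9 (2.36-fold), the second had the one in the Hox-free stretch given above, and the covered shares were 0.342% and 0.483% (mean 0.412% ± 0.10, SD, n = 2). At 12 h there were 2 regions, chr11:96057178-96057477 past Hoxb13 (3.78-fold) and chr11:96125666-96125965 before Hoxb9 (3.96-fold), covering 0.462%. No region was listed after Wnt3a or at 6 h and 72 h. None of the 4 regions was found in a second H3K27me3 list, and 3 of the 4 had a −log10 q under 5, the exception being the one before Hoxb9 (6.64). By fold they ranked 4323 of 4332, 6222 of 6236, 3054 of 3056 and 3044 of 3056. The peak names were read as giving a local background of 100 kb, and the background library is not given. Whether a wide domain of the mark raises that background was not tested. The few listed regions therefore do not show that the mark was absent.

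Open chromatin in EpiSCs was listed at more sites around Hoxb9, Hoxb8, Hoxb7 and Hoxb5 at 48 h than at 0 h. The covered share of the window was 2.39% at 0 h (9 regions) and 4.93% at 48 h (16 regions), a difference of 2.54 points. The nearest replicate pair, of E6.0 embryos, had an SD of 0.779 points. That pair is other material and does not measure the spread between EpiSC libraries, and the counting error was not computed here. By stretch the shares at 0 and 48 h were 5.46% and 2.67% for Hoxb13, 0.533% and 0.636% for the Hox-free stretch and 0.893% and 12.2% for Hoxb9. They were 0% and 12.5% for Hoxb8, 7.34% and 15.6% for Hoxb7, 3.89% and 2.09% for Hoxb6, and 4.92% and 9.91% for Hoxb5. Hoxb13 and Hoxb6 thus had lower shares at 48 h and the other stretches higher ones. The 2 lists come from different folders, and time and folder cannot be told apart.

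Of the 16 regions at 48 h, 10 did not overlap a region at 0 h (62.5%, Wilson interval 38.6 to 81.5%), against 27.5% of the list, and 6 of 12 did not in the Hoxb1 to Hoxb4 stretch. Several of these 10 were at the low end of the list by fold (2.78 to 3.61-fold). They ranked 37823, 37991, 38011, 38013 and 38015 of 38032. With a −log10 q of at least 5, 8 regions were gained. The 3 of 9 regions at 0 h that were not listed at 48 h are close to the share in the whole list (33.8%). They lay past Hoxb13, in the middle of the Hox-free stretch and at chr11:96155949-96156279 before Hoxb6 (5.57-fold). The strongest region at Hoxb7 was listed at both times, chr11:96146717-96146940 at 0 h (10.0-fold) and chr11:96146474-96146957 at 48 h (10.7-fold). The Hoxb5 stretch led with chr11:96172992-96173606 at 0 h (9.50-fold), which had 3.87-fold at 48 h, and with chr11:96168119-96168487 at 48 h (7.39-fold), which was not listed at 0 h.

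At Hoxb5 and Hoxb6 the 3 open regions that were new at 48 h lay beside the H3K4me3 regions of 72 h and overlapped none of them. The 48 h regions chr11:96164491-96164741 (6.27-fold) and chr11:96168119-96168487 fell into the gaps between H3K4me3 regions of 72 h. No ATAC-seq list had a region from 1 kb before to 2 kb after the Hoxb6 position, although H3K4me3 was listed there at 72 h and Ring1b in 3 libraries. Across the window 4 of the 16 H3K4me3 regions gained at 72 h overlapped an ATAC-seq region of 48 h, where 59.3% of the 1120 regions gained in the whole list did. The marks were measured in different genotypes and at different times, so these are comparisons of position only.

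In embryos the window had few open regions at every stage. At E6.0 the 2 libraries had 6 and 8 regions and covered 1.46% and 2.56% (mean 2.01% ± 0.779, SD, n = 2), at E7.2 they had 2 and 6 regions and 0.382% and 1.97% (1.18% ± 1.12, n = 2), and the E7.5 posterior part had 5 regions and 1.20%. The stages overlap. The difference of -0.832 points between E7.2 and E6.0 did not exceed the spread (exact two-sided permutation test, p = 0.667, where 2 against 2 libraries cannot give a p below 0.333). Within the folders it was -1.07 points between the first replicates and -0.590 between the second. The E7.5 value lay 0.0219 points above the E7.2 mean, but that mean is of 2 unlike libraries. Without the first E7.2 replicate the difference was -0.772 points, and without the second 0.815, so no direction can be given.

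At E6.0 and E7.2 the open region at the Hoxb9 position went with replicate number and not with stage, and in these 4 libraries the number is also the processing folder. A region at the Hoxb9 position was listed in the second replicates of E6.0, chr11:96132951-96134046 (6.18-fold), and of E7.2, chr11:96133064-96134176 (4.97-fold), and in neither first replicate. The E7.5 posterior list, from the folder of the first replicates, held chr11:96133432-96133848 (3.99-fold), so the folder does not divide all 5 embryo libraries. Hoxb13 was listed as open at the gene in both E6.0 libraries and the second E7.2 library, with 5.44, 3.82 and 3.80-fold, and not in the E7.5 posterior list, whose Hoxb13 stretch had no region. Hoxb6 had no open region in any embryo list.

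The E7.5 posterior list shared 3 open sites with stimulated EpiSCs that no other ATAC-seq list held. These were chosen after their values were seen. They lay just before Hoxb9, chr11:96132112-96132626 (3.71-fold at E7.5) with chr11:96132003-96132683 (6.05-fold at 48 h), past Hoxb8, chr11:96145029-96145257 (3.90-fold) with chr11:96144542-96145287 (6.15-fold), and at Hoxb7, chr11:96148039-96148185 (3.03-fold) with chr11:96147852-96148243 (3.09-fold). Both regions at Hoxb7 were near the end of their lists by fold, ranked 42294 of 42338 at E7.5 and 37991 of 38032 at 48 h. The one at E7.5 had a −log10 q of 3.94, under 5. Of the 10 regions gained at 48 h, 4 overlapped the E7.5 posterior list (43.7% of gained regions in the genome did), 1 the second E6.0 and 1 the second E7.2 list (26.8% and 50.1%), and none the first E6.0 and E7.2 lists (22.7% and 17.5%). The share for E7.5 is thus near its background.

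Set beside the anterior genes, the window had the lower covered share in all 7 ATAC-seq lists, in all 3 Ring1b lists with regions and in all 3 wild-type H3K27ac lists. The window's share is taken over all of its 130 kb, including the sparse Hox-free stretch of 58.0 kb. Shares without that stretch were not compared, so a lower share of the window does not by itself give a lower share at its genes. In wild-type H3K27ac at 24 h every stretch was covered less than the neighbour, at most 17.7% and 12.9% (Hoxb7) against 22.6% and 22.2%. In some other lists a single stretch was covered more, such as Hoxb9 in the E7.5 posterior list (6.69% against 1.58%). H3K4me3 was higher in the window at 0 h (4.44% against 2.14%) and at 72 h (17.1% against 10.4%), while at 6 h (1.45% against 2.83%) and 12 h (3.55% against 7.57%) the anterior genes were covered more. H3K27ac in the knockout was listed in the window and not in the neighbour at 0, 6 and 12 h, and at 72 h it was 0.647% against 2.18%. H3K27me3 was higher in the window in the first 0 h library (0.342% against 0%) and at 12 h (0.462% against 0%) and lower in the second 0 h library (0.483% against 0.542%), with 1 or 2 regions in each. With 1 or 2 libraries per group these differences between the ends of the cluster were not tested.

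**Figure D4:**
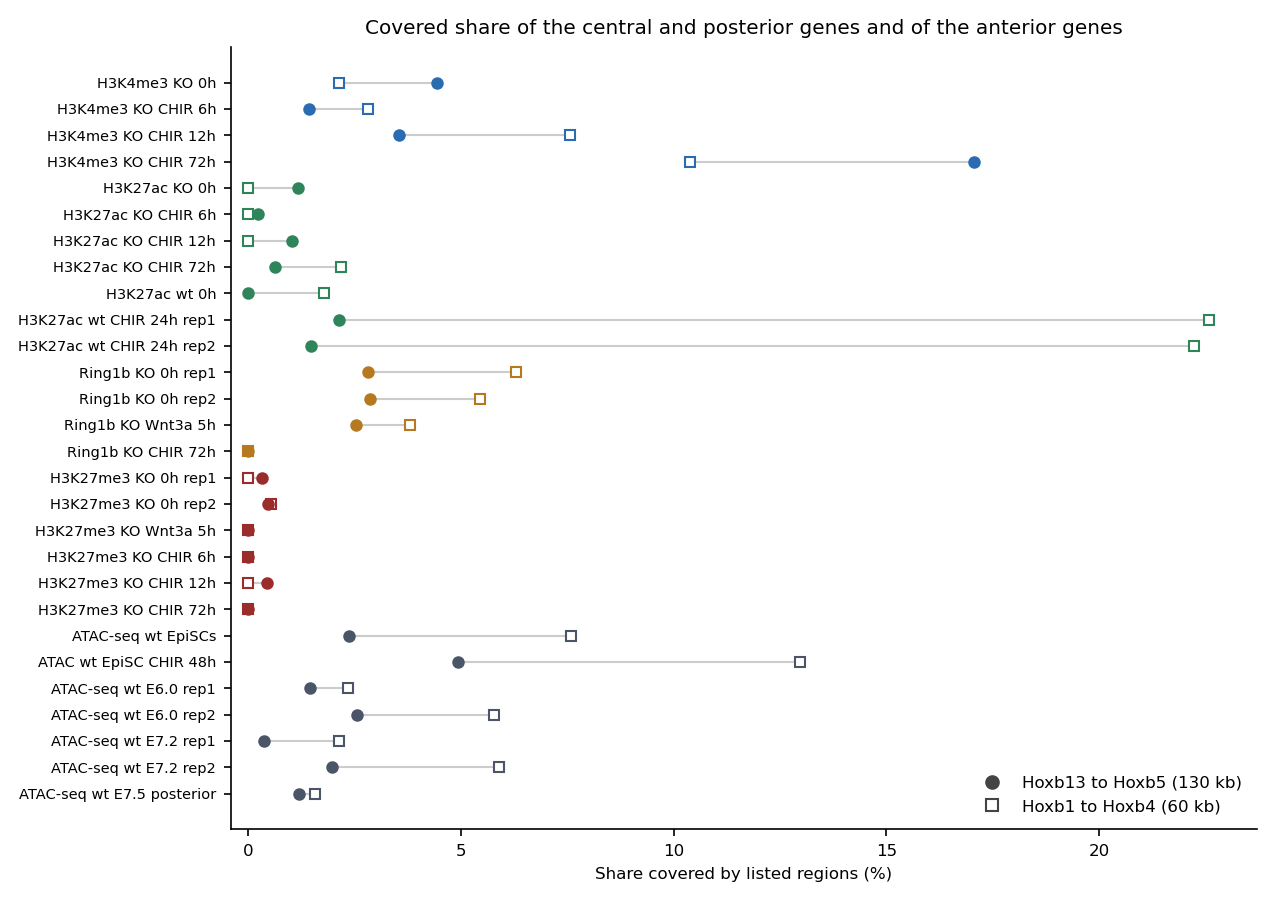
Share covered by listed regions (x axis, percent) in each library (y axis), for the window from Hoxb13 to Hoxb5 (filled circles) and the Hoxb1 to Hoxb4 stretch (open squares), joined by a line. The window includes the sparse Hox-free stretch. Wild-type H3K27ac at 24 h shows the widest gap, 2.15% and 1.48% against 22.6% and 22.2%, and H3K4me3 at 72 h has the higher share in the window.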

How the data were processed

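Members and gene lists were chosen with earlier results of these data known. Per the submitters' processing notes the build was mm9, SAMtools 0.1.19 and MACS2 2.1.0 served both assays, Bowtie 1.1.0 only ChIP-seq, and Bowtie2 2.1.0 and cutadapt 1.8.1 only ATAC-seq. Not given in the sources used here are the tools of both wild-type H3K27ac libraries at 24 h and of both wild-type H3K4me3 libraries, and the background library of peak calling. Settings in the peak names were read as an extension to 300 bp in ChIP-seq lists and a local background of 100 kb in all lists, and the setting SPMR stands in the wild-type H3K27ac lists at 24 h but not in that at 0 h. The deposited fold is the authors' ratio of signal to local background at the summit. The deposited −log10 p and −log10 q are the authors' peak caller's, and the deposited score repeats the −log10 p and was not used. The deposited summit offset placed each region in a stretch.

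Covered shares, overlaps of at least 1 bp, 95% Wilson intervals and the exact permutation test were computed with Python 3.11.15, numpy 2.4.6, pandas 2.3.3 and scipy 1.17.1, and tested on simulated data. Groups of 1 library were not tested. Their differences stand beside the SD of the nearest replicate pair or, for H3K4me3, the counting error of region number and length. Where that pair is of other cells, genotype or time, its SD does not measure the spread of the groups compared. Fold values ordered regions within a list. Folds from different lists are printed side by side without scaling, and the median fold of the knockout H3K4me3 lists ran from 14.7 to 22.3. Regions named are those of highest fold in each stretch of a list and every site of the Hox-free stretch, with exceptions marked. Replicate numbers were not treated as pairs, because no label ties them to a litter or day. Alternatives were a −log10 q of at least 5, lists of equal length, a window 10 kb shorter on each side, an overlap of at least 50%, leaving out each replicate, and a replicate block. No mm9 annotation was used, so cell identity was not checked by marker genes. The 25 4C samples were not analysed here.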

Additional observations from a re-analysis of the deposited data

Results flagged for a closer look

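The covered share of H3K27ac lay below its 0 h value in each knockout library and above it in both wild-type libraries at 24 h. In Wnt3 knockout EpiSCs the covered share minus that at 0 h was -0.953 points at 6 h, -0.144 at 12 h and -0.537 at 72 h. In wild-type EpiSCs it was 2.15 and 1.48 points in the replicates at 24 h. In each knockout list the share is the length of 1 region, at the same site past Hoxb13. By fold that region ranked 4879 of 12135 at 0 h and 4945 of 10225 at 6 h. It ranked 1548 of 11636 at 12 h and 5599 of 10161 at 72 h. Its fold was highest at 12 h, although the share was below that at 0 h. A lower share therefore does not by itself show lower enrichment. The times differ, the regions lie at different sites, and the difference between genotypes was not tested. Each knockout value is of 1 library, and the one at 12 h is smaller than the SD of 0.476 points between the wild-type replicates. That SD is of another genotype and other sites and does not measure the spread between knockout libraries. The knockout lists at 6 and 12 h come from another folder than that at 0 h, as the wild-type lists at 24 h do. The knockout lists also hold fewer regions (10161 to 12135) than the wild-type lists at 0 h (14453) and at 24 h (29056 and 27422).

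The pair of wild-type H3K4me3 libraries left out of all comparisons, because title and stimulation field contradict each other, had regions in the window where the inputs had none. The library titled 0 h, whose stimulation field gives 72 h of CHIR99021, covered 5.84% with 8 regions. The library titled 72 h of CHIR99021, whose stimulation field gives IWP2, covered 13.0% with 16 regions.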

How the results depend on the processing

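Of 65 alternative values for 16 results, 50 were counted as unchanged, 14 moved, and 1 no longer exceeded the counting error. The last was H3K4me3 at 72 h minus 0 h in the window 10 kb shorter on each side (7.94 points, error 8.91). Unchanged meant within the replicate spread, on the same side of the counting error or, for counts, within 1.5 times. For E7.2 minus E6.0 it meant only the same sign, and those values ran from -0.0388 to -1.63 points, against -0.832 in the main comparison. The sign changed in 2 of the 65, both of E7.5 posterior minus E7.2, a difference inside the replicate SD. It was -0.255 points with lists of equal length and -0.772 to 0.815 when 1 E7.2 replicate was left out. With a −log10 q of at least 5, Ring1b was -2.41 points at 72 h and -0.101 after Wnt3a relative to 0 h, 2 Ring1b regions were lost, and the H3K27me3 difference was 0. With lists of equal length, wild-type H3K27ac was 0.593 points with 1 region gained, Ring1b was -0.915 points at 72 h and after Wnt3a with 0 regions lost, H3K27me3 was 0, and 1 ATAC-seq region was lost. In the shorter window Ring1b was -3.36 points at 72 h and -0.363 after Wnt3a. Leaving out 1 replicate gave 5 or 7 Ring1b regions lost, where 4 were shared by both. The replicate block for E7.2 minus E6.0 gave -0.832 points (exact sign-flip permutation test, p = 0.5), and numbers were not taken as pairs. Chosen after seeing the data, a Hox-free stretch 5 kb shorter on each side had 0% H3K4me3 at 0 h and 4.59% at 72 h. Read depth is unknown, so absence from a list sets no limit.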

Other observations

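The 2 wild-type H3K4me3 libraries with contradictory labels differed in where their regions lay. The one titled 0 h had 4 regions at Hoxb13, 2 at Hoxb7 and 2 at Hoxb5, and covered 23.1% of the Hoxb13 stretch, 15.9% of Hoxb7 and 7.93% of Hoxb5. The one titled 72 h of CHIR99021 had 2 regions at Hoxb13, 2 in the Hox-free stretch, 1 each at Hoxb9 and Hoxb8, 2 at Hoxb7, 3 at Hoxb6 and 5 at Hoxb5. It covered 5.16% of Hoxb13, 2.49% of the Hox-free stretch, 12.1% of Hoxb9, 11.7% of Hoxb8, 29.6% of Hoxb7, 40.6% of Hoxb6 and 46.4% of Hoxb5. Its Hox-free regions were chr11:96112799-96113610 (7.05-fold) and chr11:96113925-96114392 (2.89-fold). The Hoxb1 to Hoxb4 stretch was covered to 12.3% and 19%. Both list the site 10.1 kb past Hoxb13, chr11:96064442-96065637 (7.90-fold) in the first and chr11:96064611-96065164 (5.92-fold) in the second. These are values of single libraries, and no condition is assigned to either.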
